A study of Homo sapiens with 12 samples.

Results

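The genes described here are 42 human genes of the endoplasmic reticulum (ER) folding machinery, listed by name: 5 chaperones, 6 co-chaperones and small luminal factors, 6 enzymes of oxidative folding, 11 genes of ER-associated degradation (ERAD), the 3 stress sensors with the transcription factor XBP1, and 10 genes of the translocon, signal peptidase and translocon-associated complex. They were taken from the 28747 gene identifiers of a raw count table by their Ensembl identifiers, with no value in the rule, from a list of names drawn up with earlier results of these data known, and all 42 were in the table. The table holds RNA-seq counts from DU145, an established line of human prostate carcinoma cells. Cells stably transduced with a lentiviral control hairpin (shCtrl) or with the knockdown hairpin that the labels name shSigma, both selected with puromycin, were grown as adherent cultures or as tumor spheres, which form without attachment in serum-free, stem-selective medium. There were 3 replicates in each of the 4 groups. The study used a pair of hairpins, and which of them these cells carried was not given in the sources used here, so any off-target effect of the hairpin cannot be told apart from that of the knockdown. Differences between shCtrl and shSigma cells that arose in transduction or selection cannot be told apart from it either.

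Proteins that enter the secretory pathway are threaded through the Sec61 channel into the ER, lose their signal peptide to signal peptidase, and are folded by chaperones and by protein disulfide isomerases that ERO1 oxidases recharge. Chains that fail to fold are recognized through their trimmed sugars, pulled back into the cytosol by the ATPase VCP and degraded, which is ERAD. When misfolded chains accumulate, the sensors IRE1 (gene ERN1), PERK (EIF2AK3) and ATF6 start the unfolded protein response, which raises chaperone and ERAD transcripts. Secretory cells such as those of the prostate depend on this machinery.

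Much of the transcriptional arm of this response is read through short promoter elements. The sequences are shown here because HSPA5, HSP90B1 and PDIA6, which changed direction between the cultures, hold such an element, beside others that moved differently. SEL1L changed direction as well, and its promoter window held none of the elements searched here. The ER stress response element (ERSE) was searched as CCAAT, 9 bases of any kind and CCACG, the ERSE-II element as ATTGG, 1 base and CCACG, and the core of the unfolded protein response element (UPRE) as TGACGTG, each on both strands, and matches were kept where they overlapped another element. No gene of the list held both ERSE and ERSE-II, and in HYOU1 the UPRE core overlaps an ERSE-II match. Windows from 250 bases before to 50 bases after the annotated start were taken from RefSeq on GRCh38.p14, and 38 of the 42 genes had one. Distances are from the RefSeq start, which can differ from the gene bounds of GENCODE 44 given below. A stretch can therefore lie inside those bounds, as that of HSP90B1 does. ERSE was found in 8 of the 38 genes, against 25 of the 27305 genes with a window (0.0916%). ERSE-II was found in 3 of the 38, against 19 genes (0.0696%), and the UPRE core in 5 of the 38, against 654 genes (2.40%). Together 44 genes held ERSE or ERSE-II, and 11 of those 44 were among the genes described here. A match of letters is a description of the window and says nothing about whether a factor binds there.
The stretches of HSPA5 and HSP90B1, whose direction differed between the cultures, follow with the fixed letters of each element in capitals.
HSPA5, chr9:125241384-125241503, minus strand, 120 bases ending 41 bases before the start, with 1 ERSE: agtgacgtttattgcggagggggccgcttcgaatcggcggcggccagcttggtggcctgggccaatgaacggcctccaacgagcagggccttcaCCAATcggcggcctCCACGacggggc
HSP90B1, chr12:103930210-103930349, plus strand, 140 bases ending 61 bases before the start, with 1 ERSE on each strand: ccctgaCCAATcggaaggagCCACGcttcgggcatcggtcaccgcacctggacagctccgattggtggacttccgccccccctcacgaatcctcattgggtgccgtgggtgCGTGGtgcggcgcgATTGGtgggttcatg
The single elements of the other genes are given in the direction in which the element reads, with the same capitals.
PDIA6, chr2:10812853-10812871, same strand as the gene, 86 to 68 bases before the start: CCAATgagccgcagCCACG
XBP1, chr22:28800603-28800621, same strand, 52 to 34 bases before the start: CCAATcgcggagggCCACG
CRELD2, chr22:49918554-49918572, opposite strand, 80 to 62 bases before the start: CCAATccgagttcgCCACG
CALR, chr19:12938384-12938402, opposite strand, 225 to 207 bases before the start: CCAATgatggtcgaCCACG
ERO1B, chr1:236282183-236282201, opposite strand, 243 to 225 bases before the start: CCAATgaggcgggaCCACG
CANX, chr5:179698778-179698796, same strand, 151 to 133 bases before the start: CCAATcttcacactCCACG
HERPUD1, chr16:56932025-56932035, same strand, ERSE-II 117 to 107 bases before the start: ATTGGgCCACG
SDF2L1, chr22:21642114-21642124, opposite strand, ERSE-II 188 to 178 bases before the start: ATTGGtCCACG
HYOU1, chr11:119057274-119057284, opposite strand, ERSE-II 79 to 69 bases before the start, with another match at chr11:119057380-119057390, 185 to 175 bases before it: ATTGGaCCACG

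Total counts per library ran from 16472722 to 26957777. Levels are given as CPM, counts scaled to library size with edgeR's TMM factors. Fold changes are on the log2 scale with ± their SE, and FDR is the Benjamini-Hochberg adjusted p of edgeR's quasi-likelihood test over all genes. The epithelial keratins KRT8 and KRT18 were between 202 and 516 CPM in all 12 libraries, while KLK3, a marker of luminal prostate cells, had at most 2 counts in any library. Summed over 2 luminal markers, levels were 13.6 to 14.4 CPM in adherent shCtrl and 18.4 to 22.4 CPM in adherent shSigma libraries. In spheres they were 5.39 to 5.97 CPM in shCtrl and 10.8 to 12.7 CPM in shSigma libraries. A single luminal gene had up to 463 counts in adherent shSigma libraries, so not every luminal marker was empty. The summed level of 4 epithelial markers was 788 to 839.8 CPM in adherent shCtrl, 919 to 1009 CPM in adherent shSigma, 2102 to 2139 CPM in sphere shCtrl and 685 to 726 CPM in sphere shSigma libraries. That of 6 markers of immune, endothelial, stromal and liver cells was 1.46 to 2.33, 1.33 to 1.40, 1.86 to 2.40 and 0.636 to 0.742 CPM in the same order. The epithelial pair EPCAM and CDH1 moved with the hairpin, EPCAM by -2.99 ± 0.11 in adherent cells and -3.31 ± 0.06 in spheres, and CDH1 by -1.23 ± 0.10 and -4.71 ± 0.10 on the log2 scale. Their part in the results on the ER genes was not tested. Replicates of adherent cells varied more than those of spheres, with a biological coefficient of variation of 14.4% against 6.89%. In the adherent shSigma group replicates 1 and 2 differed little (chi-square per gene 2.73) and both differed from replicate 3 (24.5 and 32.8). The adherent shCtrl replicates differed as much, at 43.9 for 1 and 3, 19.7 for 1 and 2 and 11.2 for 2 and 3, so results in adherent cells are given with libraries left out where that changes them.

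The 42 genes covered a wide range of levels. Scaled to the length of the reference transcript and averaged over the 4 groups, HSP90B1, the ER form of HSP90, was highest at 685 CPM per kb. The lectin chaperone CALR followed at 552, then the disulfide isomerases P4HB and PDIA6 at 357 and 356, and HSPA5 at 318 CPM per kb. The sensors were at the other end of the order, with ATF6 at 9.50, EIF2AK3 at 6.79 and ERN1 at 4.04 CPM per kb. No length was at hand for XBP1. P4HB and PDIA6 were next to each other in this mean order but not in every group, since P4HB ran from 224 ± 19.5 CPM per kb (SD, n = 3) in adherent shCtrl cells to 528 ± 23.9 in shSigma spheres, while PDIA6 was at 398 ± 33.2 and 368 ± 6.92. Exons of 28 of the 42 genes overlap another annotated gene, 26 of them one on the opposite strand. Among the abundant genes HSP90B1 overlaps UQCC6 and PDIA6 overlaps ATP6V1C2. Whether reads were counted by strand was not given in the sources used here, so reads of such partners cannot be told apart.

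The values of 3 genes cannot be read as levels. HYOU1, an ER chaperone of the HSP70 family, had 0 or 1 count in every library, DERL3, an ERAD channel protein, had 0, and CANX, the membrane-bound lectin chaperone, had 22 to 86 counts. Several of their chromosomal neighbours were empty too. RPS25, VPS11 and TRAPPC4 beside HYOU1, MGAT4B and MAML1 beside CANX, and SMARCB1, MIF and CHCHD10 beside DERL3 had at most 2 counts in any library, although RPS25 encodes a ribosomal protein that every cell uses. Of the 10 nearest protein-coding genes, 5 beside HYOU1, 5 beside CANX and 7 beside DERL3 had at most 3 counts in every library, against 25.4% of all 19237 protein-coding genes. Such neighbours were not limited to these genes, with 6 beside EIF2AK3 and 5 beside ERN1. EIF2AK3 and ERN1 themselves had up to 731 and 918 counts, so empty neighbours alone do not mark a gene as unreadable. A filter on low counts passed 40 of the 42 genes, without HYOU1 and DERL3. CANX passed it, and counts over the genes that passed are given with and without it. Its own values were 1.46, 1.40 and 1.54 CPM in the adherent shCtrl libraries and 1.10, 1.59 and 1.06 CPM in the adherent shSigma libraries, with 1.7, 1.21 and 1.26 CPM in the shCtrl spheres and 4.34, 3.66 and 2.81 CPM in the shSigma spheres.

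After knockdown in adherent cells, 24 of the 40 genes passed an FDR under 0.05 in edgeR's quasi-likelihood test, 8 higher and 16 lower. Over all 13764 genes tested 50.0% passed, 22.3% higher and 27.7% lower. The median log2 fold change of the 40 genes was -0.13, against -0.01 over all genes. In tumor spheres 28 of the 40 passed, 19 higher and 9 lower, where 61.1% of 13774 genes passed, 30.2% higher and 30.9% lower. Their median was 0.11 there, against 0.00 over all genes. Without CANX the counts were 24 and 27 of 39. Most of the changes were small: 1 gene in adherent cells and 2 in spheres (1 without CANX) passed with an absolute log2 fold change over 1, where 13.7% and 13.1% of all genes did. The 2 groups of libraries did not overlap for 23 of the 40 genes in adherent cells, against 57.9% of all genes, and for 32 in spheres, against 66.8%. The count of calls in adherent cells depended on the libraries. It was 16 and 13 without shCtrl replicates 1 and 2, 14 and 15 without shSigma replicates 1 and 2, and 24 and 26 without shCtrl or shSigma replicate 3. The share of all genes called moved too, to 44.2% and 37.2%, 37.0% and 39.3%, and 49.4% and 50.7% in the same order. In spheres the count stayed between 25 and 27, and the share of all genes between 54.2% and 59.2%.

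The test of the difference between the cultures, the interaction of hairpin and culture, passed for 15 of the 40 genes (14 of 39 without CANX). Of these, 14 moved upward from adherent cells to spheres and 1, ERO1A, moved downward. Over all 14175 genes tested 28.4% passed, 12.7% upward and 15.6% downward. CANX alone had an interaction over 1 log2 unit, which 8.54% of all genes had. The 4 genes that fell in adherent cells and rose in spheres were HSPA5, HSP90B1, PDIA6 and SEL1L, and all 4 passed this test. A further 8 genes rose in both cultures (ATF6, CALR, DNAJB9, EDEM2, EDEM3, ERO1B, P4HB and SYVN1) and 7 fell in both (CRELD2, DERL1, EDEM1, ERO1A, MANF, SPCS1 and VCP). In 7 genes neither comparison passed: DNAJC3, EIF2AK3, ERN1, OS9, SEC61B, SPCS2 and XBP1.

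**Figure D1:**
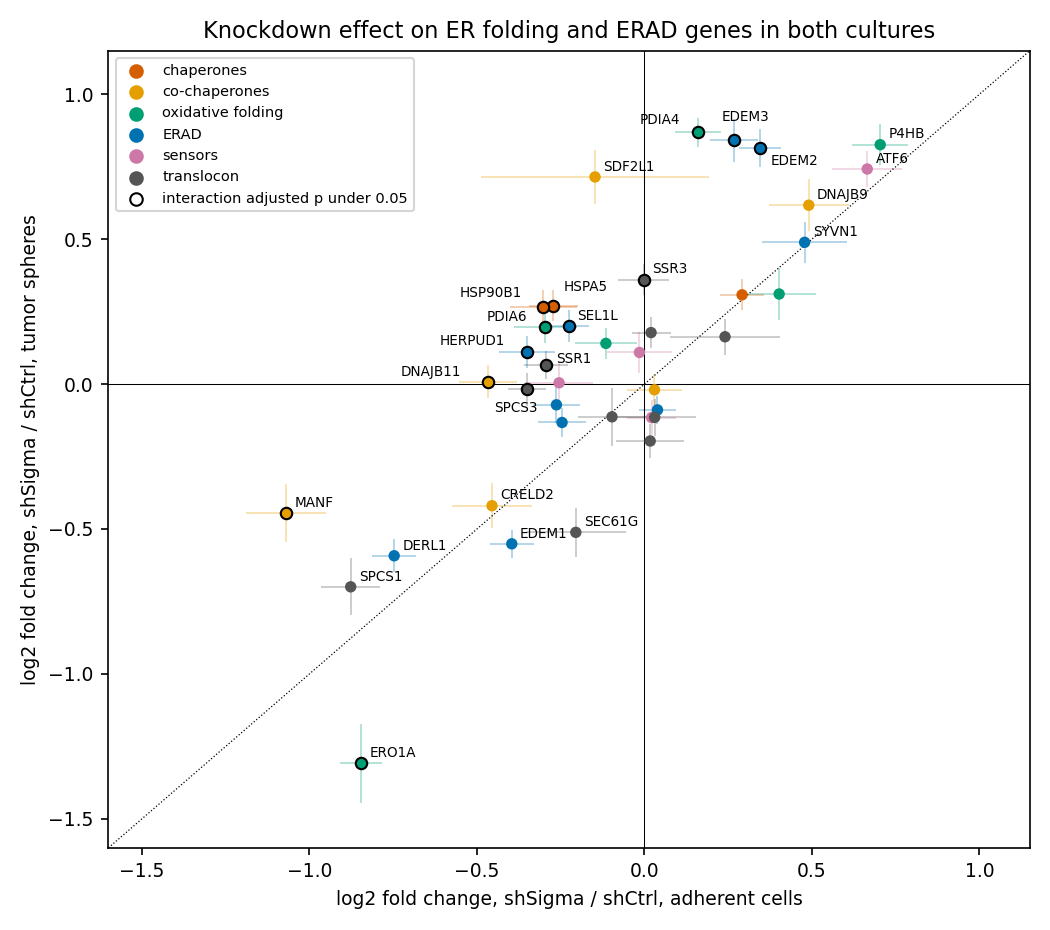
Log2 fold change of shSigma against shCtrl in adherent cells (x axis) and in tumor spheres (y axis) for 39 genes, as points coloured by role with bars of 1 SE. Black rims mark an interaction at an FDR under 0.05, the dotted line marks equal change, and HSPA5, HSP90B1, PDIA6 and SEL1L sit at the upper left, while ERO1A lies lowest.

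Of the 4 chaperones tested, 1 was higher and 2 were lower in adherent cells, and all 4, CANX included, were higher in spheres. Over all genes 50.0% were called in adherent cells and 61.1% in spheres. HSPA5 and HSP90B1 moved in opposite directions in the cultures. HSPA5 (ENSG00000044574, chromosome 9, bases 125234853 to 125241382, minus strand of GRCh38) encodes BiP, the HSP70 chaperone of the ER that also holds the stress sensors inactive. HSPA5 was at 1401, 1308 and 1299 CPM in the adherent shCtrl libraries and 1132, 1104 and 1238 CPM in the adherent shSigma libraries, and at 1141, 1142 and 1108 CPM in the shCtrl spheres and 1387, 1359.9 and 1354 CPM in the shSigma spheres. The groups did not overlap in either culture, with the knockdown libraries below the controls in adherent cells and above them in spheres. The log2 fold change was -0.27 ± 0.07 (FDR = 0.0173) in adherent cells and 0.27 ± 0.05 (FDR = 0.000842) in spheres, and the difference between the cultures was 0.48 ± 0.09 (FDR = 0.00143). Its fall in adherent cells kept its direction but not its call in DESeq2's own test, with DESeq2's size factors or upper-quartile normalization in edgeR, without a filter on low counts, or when shCtrl replicate 1 or 2 or shSigma replicate 1 or 2 was left out, over which the log2 fold change was -0.31 to -0.17 and the FDR reached 0.218. The rise in spheres and the interaction kept their calls under each alternative run.

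HSP90B1 (ENSG00000166598, chromosome 12, bases 103930107 to 103953931, plus strand) encodes GRP94, which folds integrins and Toll-like receptors. Its values were 2421, 2196 and 2045 CPM in the adherent shCtrl libraries and 1855, 1723 and 2084 CPM in the adherent shSigma libraries, and 1583, 1657 and 1543 CPM in the shCtrl spheres and 1933, 1858 and 1975 CPM in the shSigma spheres. The adherent groups overlapped, since shSigma replicate 3 lay above shCtrl replicate 3, and the sphere groups did not. The log2 fold change was -0.30 ± 0.10 (FDR = 0.0386) in adherent cells, a call lost in the same cases as that of HSPA5 and relative to its neighbours, and 0.27 ± 0.06 (FDR = 0.00169) in spheres. The interaction was 0.50 ± 0.12 (FDR = 0.00615). CALR, the soluble lectin chaperone and calcium store of the ER, rose in both cultures, by 0.29 ± 0.06 (FDR = 0.00741) and 0.31 ± 0.05 (FDR = 0.000346), with an interaction of -0.04 ± 0.08 (FDR = 0.75). Its values went from 894, 839.6 and 884 to 1080.4, 1113 and 1155 CPM in adherent cells and from 997, 983 and 979 to 1263, 1195 and 1215 CPM in spheres. Relative to its neighbours CALR was at 0.18 (FDR = 0.0509) in adherent cells, where its call was lost, and 0.31 (FDR = 0.000397) in spheres. CANX had a sphere log2 fold change of 1.38 ± 0.22 (FDR = 0.000219) and an interaction of 1.61 ± 0.32 (FDR = 0.00194), on the few counts given for it, and was not read as a level.

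**Figure D2:**
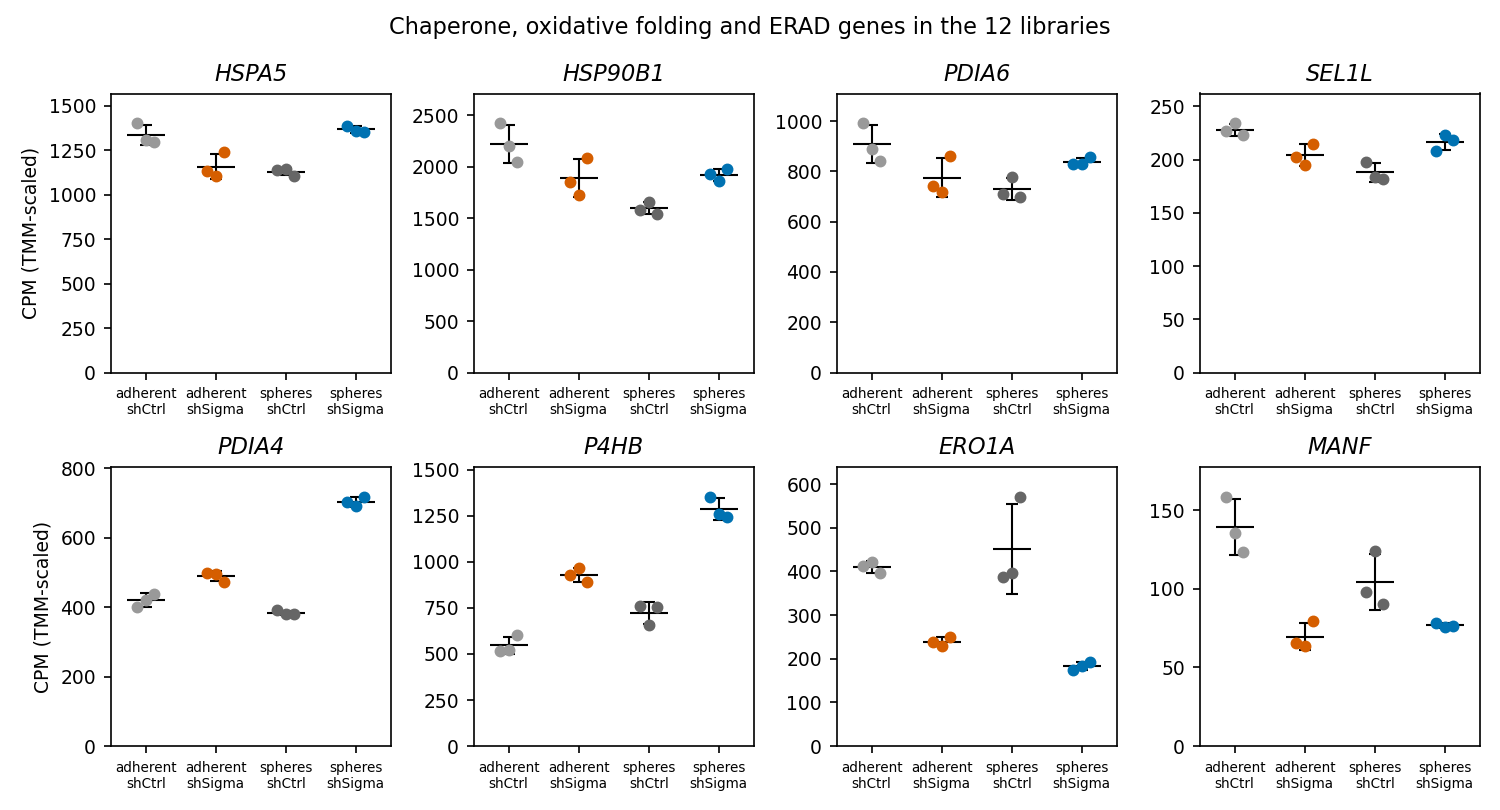
CPM (y axis, from 0) of 8 genes in the 12 libraries by group, with points for single libraries and bars for the mean and SD (n = 3). HSPA5 in shSigma cells lies at 1104 to 1238 CPM in adherent culture, below its control, and at 1354 to 1387 CPM in spheres, above its control.

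Among the co-chaperones and small luminal factors, 4 of 6 were called in each culture, beside 50.0% of all genes in adherent cells and 61.1% in spheres. In adherent cells 1 was higher and 3 were lower, and in spheres 2 were higher and 2 lower. The largest change in adherent cells was the fall of MANF, a secreted ER stress-inducible factor that binds BiP. MANF was at 158, 135 and 124 CPM in the adherent shCtrl libraries and 65.3, 63.6 and 79.6 CPM in the adherent shSigma libraries, and at 98.2, 124 and 90.1 CPM in the shCtrl spheres and 78.0, 75.4 and 76.5 CPM in the shSigma spheres. Both pairs of groups were separate, and the fall was deeper in adherent cells. The log2 fold change was -1.07 ± 0.12 (FDR = 0.000289) there and -0.44 ± 0.10 (FDR = 0.00342) in spheres, with a difference of 0.56 ± 0.18 (FDR = 0.0328) that 8 of the 12 fits with 1 library left out did not call. The 40 tested genes nearest to it on the chromosome had a median log2 fold change of -0.29 in adherent cells and -0.40 in spheres, and with it subtracted MANF was at -0.78 (FDR = 0.00144) and -0.04 (FDR = 0.736). Whether a change shared with a chromosomal neighbourhood bears on the gene itself was not tested.

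SDF2L1, a partner of BiP and of the DnaJ protein ERdj3, was at 8.14, 11.3 and 13.5 CPM in the adherent shCtrl libraries and 11.8, 12.9 and 5.98 CPM in the adherent shSigma libraries. In spheres it was at 13.2, 15.2 and 13.3 CPM in the shCtrl spheres and 24.7, 21.9 and 22 CPM in the shSigma spheres. The adherent groups overlapped and the sphere groups did not, with log2 fold changes of -0.15 ± 0.34 (FDR = 0.745) and 0.71 ± 0.09 (FDR = 3.89e-05). DNAJB11, which encodes ERdj3, was lower in adherent cells (-0.47 ± 0.09, FDR = 0.00321) and was at 0.01 ± 0.06 (FDR = 0.913) in spheres, and the difference passed (0.41 ± 0.10, FDR = 0.00613). DNAJB9, the DnaJ protein ERdj4 that returns IRE1 to its BiP-bound state, rose by 0.49 ± 0.12 and 0.62 ± 0.09. Its 40 nearest genes had medians of 0.45 and 0.55, and neither call remained after their subtraction. CRELD2, an ER stress-induced isomerase-like factor, fell by 0.46 ± 0.12 and 0.42 ± 0.08 in adherent cells and spheres on the log2 scale beside neighbour medians of -0.23 and -0.44, and its calls too were lost on subtraction. The adherent call was also lost without shCtrl replicate 2 or shSigma replicate 2. DNAJC3, the PERK inhibitor p58IPK, was at 0.03 ± 0.08 and -0.02 ± 0.05.

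The enzymes of oxidative folding were called in 4 of 6 cases in adherent cells (2 higher, 2 lower) and in 6 of 6 in spheres (5 higher, 1 lower). Of all genes, 50.0% and 61.1% were called. PDIA4, or ERp72, a disulfide isomerase with several thioredoxin domains, was at 399, 421 and 439 CPM in the adherent shCtrl libraries and 497, 496 and 472 CPM in the adherent shSigma libraries. In spheres it was at 390.1, 380.2 and 381 CPM in the shCtrl spheres and 701, 690.2 and 717 CPM in the shSigma spheres. The knockdown libraries were above the controls in both cultures, by little in adherent cells and by 1.83-fold in spheres. The log2 fold changes were 0.16 ± 0.07 (FDR = 0.0919) and 0.87 ± 0.05 (FDR = 4.44e-08), and their difference of 0.65 ± 0.08 (FDR = 4.55e-05) kept its call under each alternative run. PDIA4 lies in a neighbourhood on chromosome 7 whose 40 nearest genes had medians of 0.79 in adherent cells and 0.61 in spheres. Relative to these it was at -0.63 in adherent cells (FDR = 0.00031) and at 0.26 (FDR = 0.000867) in spheres.

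P4HB, the classical protein disulfide isomerase and a subunit of prolyl 4-hydroxylase, rose in both cultures. It went from 516, 523 and 601 to 928, 967 and 889 CPM in adherent cells and from 759, 656 and 756 to 1353, 1261 and 1245 CPM in spheres. The groups were separate in both, the log2 fold changes were 0.70 ± 0.08 (FDR = 0.000373) and 0.83 ± 0.07 (FDR = 1.17e-06), and the interaction was 0.07 ± 0.11 (FDR = 0.712). PDIA6, which also attenuates IRE1, was at 991, 888 and 843 CPM in the adherent shCtrl libraries and 742, 718 and 863 CPM in the adherent shSigma libraries, and at 711, 779 and 699 CPM in the shCtrl spheres and 829, 829.8 and 857 CPM in the shSigma spheres. Its adherent groups overlapped through shSigma replicate 3 and its sphere groups did not. It had log2 fold changes of -0.30 ± 0.09 (FDR = 0.0331) and 0.20 ± 0.06 (FDR = 0.00948) and an interaction of 0.43 ± 0.12 (FDR = 0.014), and the adherent call was lost without shCtrl replicate 1 or 2 or shSigma replicate 1 or 2 (-0.37 to -0.16 over the libraries left out), with DESeq2, with its size factors or upper-quartile normalization in edgeR, and relative to its neighbours. The sphere call of PDIA6 was lost in 1 fit of all 12 libraries (FDR = 0.059). PDIA3, the isomerase that works with the lectin chaperones, was at -0.12 ± 0.09 (FDR = 0.336) and 0.14 ± 0.05 (FDR = 0.0408), and the latter call was lost with DESeq2 and when any sphere library other than shCtrl replicate 2 was left out (0.12 to 0.18).

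The pair of ERO1 oxidases, which pass electrons from the isomerases to oxygen, went in opposite directions. ERO1A, the form induced by hypoxia, was at 413, 422 and 397 CPM in the adherent shCtrl libraries and 238, 229 and 250 CPM in the adherent shSigma libraries. In spheres it was at 387, 398 and 571 CPM in the shCtrl spheres and 175, 182 and 192 CPM in the shSigma spheres. The knockdown libraries lay far below the controls in both cultures, with log2 fold changes of -0.85 ± 0.06 (FDR = 4.82e-05) and -1.31 ± 0.14 (FDR = 2.91e-05). Replicate 3 of the control spheres stood above all other libraries. The interaction of -0.52 ± 0.17 (FDR = 0.0352) was called in 2 of the 12 fits with 1 library left out, and was -0.60 to -0.29 over them. ERO1B, the form tied to the unfolded protein response, rose by 0.40 ± 0.11 (from 41.4, 38.7 and 32.6 to 51.9, 48.7 and 55.3 CPM) and 0.31 ± 0.09 (from 23.4, 27.3 and 22 to 30, 28.5 and 31.8 CPM). ERO1A was also at -0.50 (FDR = 0.00056) and -0.86 (FDR = 0.000528) relative to its neighbours, and ERO1B at 0.51 (FDR = 0.00751) and 0.38 (FDR = 0.00343), so both kept their calls there.

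Of the 10 ERAD genes tested, 9 were called in adherent cells (3 higher, 6 lower) and 7 in spheres (4 higher, 3 lower). Among all genes the shares called were 50.0% and 61.1%. SYVN1 and SEL1L encode the ubiquitin ligase HRD1 and the adaptor that stabilizes it. SEL1L was at 227, 234 and 223 CPM in the adherent shCtrl libraries and 203, 195 and 215 CPM in the adherent shSigma libraries, and at 198, 184 and 182 CPM in the shCtrl spheres and 208, 223 and 219 CPM in the shSigma spheres. The groups were separate in both cultures and the directions opposite, -0.22 ± 0.06 (FDR = 0.0155) in adherent cells and 0.20 ± 0.05 (FDR = 0.00759) in spheres, with an interaction of 0.36 ± 0.08 (FDR = 0.00536). The adherent fall was called in 2 of the 6 fits with 1 library left out, not without shCtrl replicate 1 or 2 or shSigma replicate 1 or 2 (-0.26 to -0.13 over all 6), and relative to the neighbour median of -0.43 it became 0.21 (FDR = 0.0238). SYVN1 rose in both cultures by 0.48 ± 0.13 and 0.49 ± 0.07, beside neighbour medians of 0.50 and 0.33, and neither call remained after their subtraction. HERPUD1, a membrane ubiquitin-like scaffold of the same ligase, was at -0.35 ± 0.08 (FDR = 0.00987) and 0.11 ± 0.05 (FDR = 0.0957), and the difference passed (0.40 ± 0.10, FDR = 0.0101). Its adherent call was lost without shCtrl replicate 1 or 2 or shSigma replicate 1 or 2 (-0.39 to -0.23 over all 6).

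The EDEM proteins trim mannose from misfolded glycoproteins and so mark them for ERAD, and the family divided. EDEM3 was at 70.2, 68.8 and 64.1 CPM in the adherent shCtrl libraries and 81.9, 83.6 and 90.2 CPM in the adherent shSigma libraries. In spheres it was at 43.4, 45.5 and 39.7 CPM in the shCtrl spheres and 72.2, 75.4 and 83.3 CPM in the shSigma spheres. It was higher in the knockdown in both cultures and more so in spheres, 0.27 ± 0.07 (FDR = 0.016) against 0.84 ± 0.07 (FDR = 1.53e-06), with an interaction of 0.51 ± 0.11 (FDR = 0.00285). The 40 genes nearest to EDEM3 had a median interaction of 0.33, which was not subtracted in any fit. EDEM2 was likewise higher in both, from 52.1, 52.4 and 54.1 to 66.3, 68.8 and 75.7 CPM in adherent cells and from 45.3, 52.6 and 50.8 to 90.3, 84.8 and 87.1 CPM in spheres, with log2 fold changes of 0.35 ± 0.06 (FDR = 0.00291) and 0.81 ± 0.07 (FDR = 8.59e-07) and an interaction of 0.41 ± 0.10 (FDR = 0.0085). EDEM1 went the other way, from 158, 173 and 161 to 125, 124 and 142 CPM and from 360.5, 365 and 351 to 239.7, 242 and 254 CPM, with log2 fold changes of -0.40 ± 0.07 (FDR = 0.00194) and -0.55 ± 0.05 (FDR = 1.7e-06). Its neighbours had medians of -0.56 and -0.48, and relative to them it was at 0.16 (FDR = 0.0787) in adherent cells and -0.07 (FDR = 0.216) in spheres. Its adherent call was also lost without shCtrl replicate 2 or shSigma replicate 1, and the value was -0.43 to -0.29 over the 6 libraries left out. Relative to their neighbours EDEM2 and EDEM3 kept their calls in spheres, at 0.68 (FDR = 4.43e-06) and 0.32 (FDR = 0.00325), but lost them in adherent cells, at 0.14 (FDR = 0.116) and 0.03 (FDR = 0.749).

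The retrotranslocation factors were lower or little changed. DERL1, a rhomboid-like channel protein, was at 148, 134 and 140.2 CPM in the adherent shCtrl libraries and 86.4, 84.9 and 92.0 CPM in the adherent shSigma libraries, and at 137, 134 and 146 CPM in the shCtrl spheres and 91.8, 95.1 and 90.2 CPM in the shSigma spheres. The groups were separate in both cultures, with log2 fold changes of -0.75 ± 0.07 (FDR = 9.79e-05) and -0.59 ± 0.06 (FDR = 2.96e-06). Its neighbours had medians of -0.56 and -0.61, and relative to them DERL1 was at -0.19 (FDR = 0.0486) and 0.02 (FDR = 0.808). DERL2 was at -0.26 ± 0.07 (FDR = 0.016) in adherent cells, a call that was lost with DESeq2 and without shCtrl replicate 1 or 2 or shSigma replicate 1 or 2, and at -0.07 ± 0.06 (FDR = 0.331) in spheres. VCP, the ATPase that extracts ubiquitylated chains, was at -0.25 ± 0.07 (FDR = 0.0247) and -0.13 ± 0.05 (FDR = 0.035). Its adherent call was lost in the same cases as that of DERL2 (-0.30 to -0.14 over the 6 libraries left out). That call was also lost with DESeq2's size factors or upper-quartile normalization in edgeR and without a filter on low counts. In spheres the VCP call was lost when any library other than shCtrl replicate 2 was left out (-0.14 to -0.12). OS9, a lectin that delivers glycoproteins to the ligase, was at 0.04 ± 0.05 (FDR = 0.582) and -0.09 ± 0.05 (FDR = 0.127). Over the alternative fits OS9 was at 0.03 to 0.37 in adherent cells, with an FDR as low as 0.00124. Relative to its neighbours it was at 0.16 (FDR = 0.0158) in spheres.

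Of the sensors and XBP1, ATF6 was the 1 of 4 called in each culture, beside 50.0% of all genes in adherent cells and 61.1% in spheres. ATF6 is the sensor that moves to the Golgi, is cleaved there and acts as a transcription factor (ENSG00000118217, chromosome 1, bases 161766298 to 161977574, plus strand). It was at 63.8, 61.2 and 52.2 CPM in the adherent shCtrl libraries and 92.1, 92.5 and 110.0 CPM in the adherent shSigma libraries, and at 46.1, 47.1 and 48.5 CPM in the shCtrl spheres and 77.7, 76.2 and 83.8 CPM in the shSigma spheres. The knockdown libraries were above the controls in both cultures without overlap. The log2 fold change was 0.66 ± 0.10 (FDR = 0.00142), or 1.59-fold, in adherent cells and 0.74 ± 0.06 (FDR = 9.59e-07), or 1.67-fold, in spheres, and both kept their calls under each alternative run. Relative to its neighbours it was at 0.41 (FDR = 0.0144) and 0.60 (FDR = 6.56e-06). The interaction of ATF6 was 0.01 ± 0.12 (FDR = 0.955), so no difference between the cultures was found.

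XBP1 messenger RNA, which IRE1 splices into the form that encodes the active factor, was at 95.2, 89.8 and 85.0 CPM in the adherent shCtrl libraries and 94.5, 90.9 and 101 CPM in the adherent shSigma libraries, and at 154, 178 and 156 CPM in the shCtrl spheres and 151, 147 and 154 CPM in the shSigma spheres. Counts per gene do not separate the spliced from the unspliced form. ERN1 was at 28.7, 35.4 and 36.2 CPM in the adherent shCtrl libraries and 27.3, 28.1 and 32.5 CPM in the adherent shSigma libraries, and at 33.3, 33.3 and 30.6 CPM in the shCtrl spheres and 31.6, 33.5 and 32.5 CPM in the shSigma spheres. EIF2AK3 was at 26.9, 26.7 and 23.5 CPM in the adherent shCtrl libraries and 26.5, 24.5 and 28.8 CPM in the adherent shSigma libraries, and at 34.7, 34.0 and 33.5 CPM in the shCtrl spheres and 34.9, 36.8 and 38.7 CPM in the shSigma spheres. The adherent groups overlapped for all 3 of these genes, and in spheres the XBP1 libraries of the knockdown lay just below the controls and those of EIF2AK3 just above. None of the 3 was called in either culture: XBP1 was at 0.02 ± 0.07 (FDR = 0.83) and -0.12 ± 0.06 (FDR = 0.111), ERN1 at -0.25 ± 0.10 (FDR = 0.0739) and 0.00 ± 0.07 (FDR = 0.96), and EIF2AK3 at -0.02 ± 0.10 (FDR = 0.911) and 0.11 ± 0.07 (FDR = 0.193). Over the alternative fits ERN1 was at -0.33 to -0.14 in adherent cells, with an FDR as low as 0.0326. Relative to their neighbours, XBP1 at -0.17 (FDR = 0.0272) and EIF2AK3 at 0.21 (FDR = 0.0209) were called in spheres. Their transcript levels say nothing about the activity of the proteins, which is set by phosphorylation, oligomerization and cleavage.

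**Figure D3:**
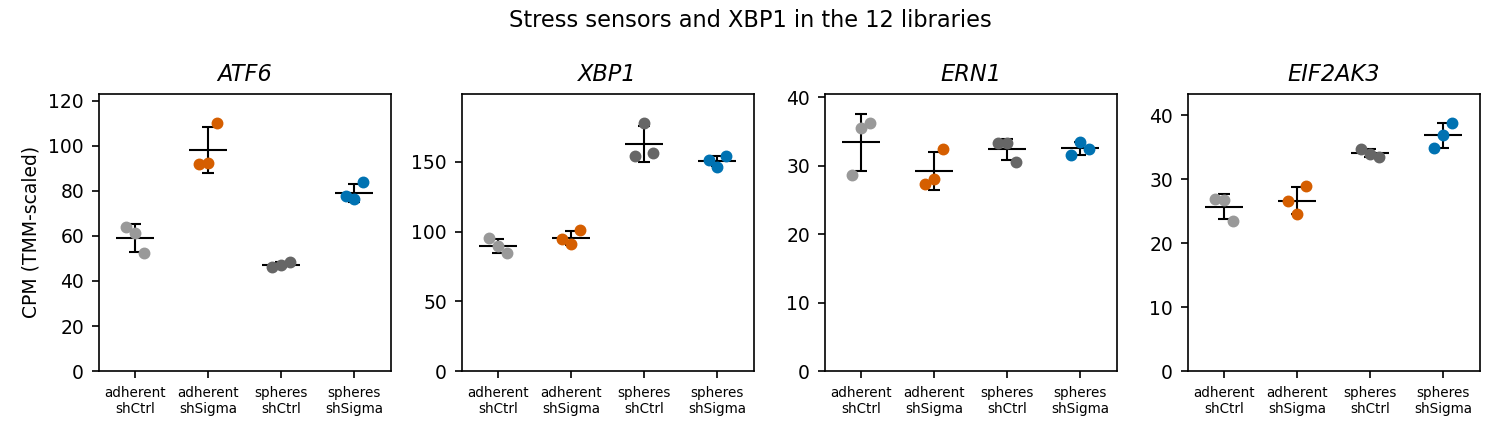
CPM (y axis, from 0) of ATF6, XBP1, ERN1 and EIF2AK3 in the 12 libraries by group, with points for libraries and bars for the mean and SD (n = 3). ATF6 in the knockdown is above its control in each culture, and XBP1 is higher in the 6 sphere libraries (147 to 178 CPM) than in the 6 adherent ones (85.0 to 101 CPM).

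Of the 10 translocon, signal peptidase and translocon-associated genes, 3 were called in adherent cells, all lower, beside 50.0% of all genes. In spheres 6 were called, 3 higher and 3 lower, beside 61.1% of all genes. SPCS1, a non-catalytic subunit of signal peptidase, had the largest change. It was at 131, 112 and 111 CPM in the adherent shCtrl libraries and 66.4, 65.7 and 70.1 CPM in the adherent shSigma libraries, and at 129.5, 171 and 134 CPM in the shCtrl spheres and 95.2, 88.4 and 84.1 CPM in the shSigma spheres. The groups were separate, with log2 fold changes of -0.88 ± 0.09 (FDR = 0.000179) and -0.70 ± 0.10 (FDR = 0.000197). Its exons overlap those of NEK4 on the opposite strand by up to 2705 bases. Its neighbours had medians of -0.54 and -0.52, relative to which it was at -0.34 (FDR = 0.0161) and -0.18 (FDR = 0.139). SPCS3, another subunit, was at -0.35 ± 0.06 (FDR = 0.00182) in adherent cells, a call lost without shCtrl replicate 2 or shSigma replicate 1, and -0.02 ± 0.06 (FDR = 0.792) in spheres. SPCS2 at -0.10 ± 0.10 and -0.11 ± 0.10 was called in neither.

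The channel subunits did not move as a block. SEC61A1, which forms the pore, was at 0.02 ± 0.06 (FDR = 0.801) and 0.18 ± 0.05 (FDR = 0.0112), the small subunit SEC61B at 0.03 ± 0.12 and -0.11 ± 0.06, and SEC61G at -0.20 ± 0.15 (FDR = 0.293) and -0.51 ± 0.08 (FDR = 0.000259). The sphere call of SEC61A1 was lost relative to its neighbours, at 0.10 (FDR = 0.12). The 4 subunits of the translocon-associated protein complex, which assists some signal peptides, differed as well. In spheres SSR3 rose (0.36 ± 0.05, FDR = 0.000125), SSR2 fell (-0.20 ± 0.06, FDR = 0.0139, not called without shCtrl replicate 3), SSR1 was at 0.06 ± 0.05 (FDR = 0.271), and SSR4 passed at 0.16 ± 0.06 (FDR = 0.0403) but not with DESeq2 or without shCtrl replicate 1 or 2 or shSigma replicate 1 or 2 (0.13 to 0.21), and was at -0.06 (FDR = 0.43) relative to its neighbours. In adherent cells SSR1 fell (-0.29 ± 0.07, FDR = 0.00792), a call lost without shCtrl replicate 1 or 2 or shSigma replicate 1 or 2 and relative to its neighbours, at -0.09 (FDR = 0.287), and the other 3 were between 0.00 and 0.24 with none called. Each of these knockdown falls and rises in the sphere libraries was under 1 log2 unit.

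The neighbourhood of a gene moved with it in part of the list. Among the genes called after knockdown, CANX left out, the median of the 40 nearest tested genes had the same sign and at least 50% of the size of the gene's own change for 10 of 24 genes in adherent cells and 11 of 27 in spheres. With that median subtracted, 13 of the 24 and 16 of the 27 calls remained. Neither count was made over all called genes, so whether these shares are particular to the list cannot be told. Calls were then made for 20 and 19 of the 39 genes, some gained or with the sign turned, where 45.8% and 56.3% of all genes were called. Those that remained in spheres included HSPA5, HSP90B1, CALR, SDF2L1, PDIA4, PDIA6, P4HB, ERO1A, ERO1B, SEL1L, EDEM2, EDEM3 and ATF6.

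**Figure D4:**
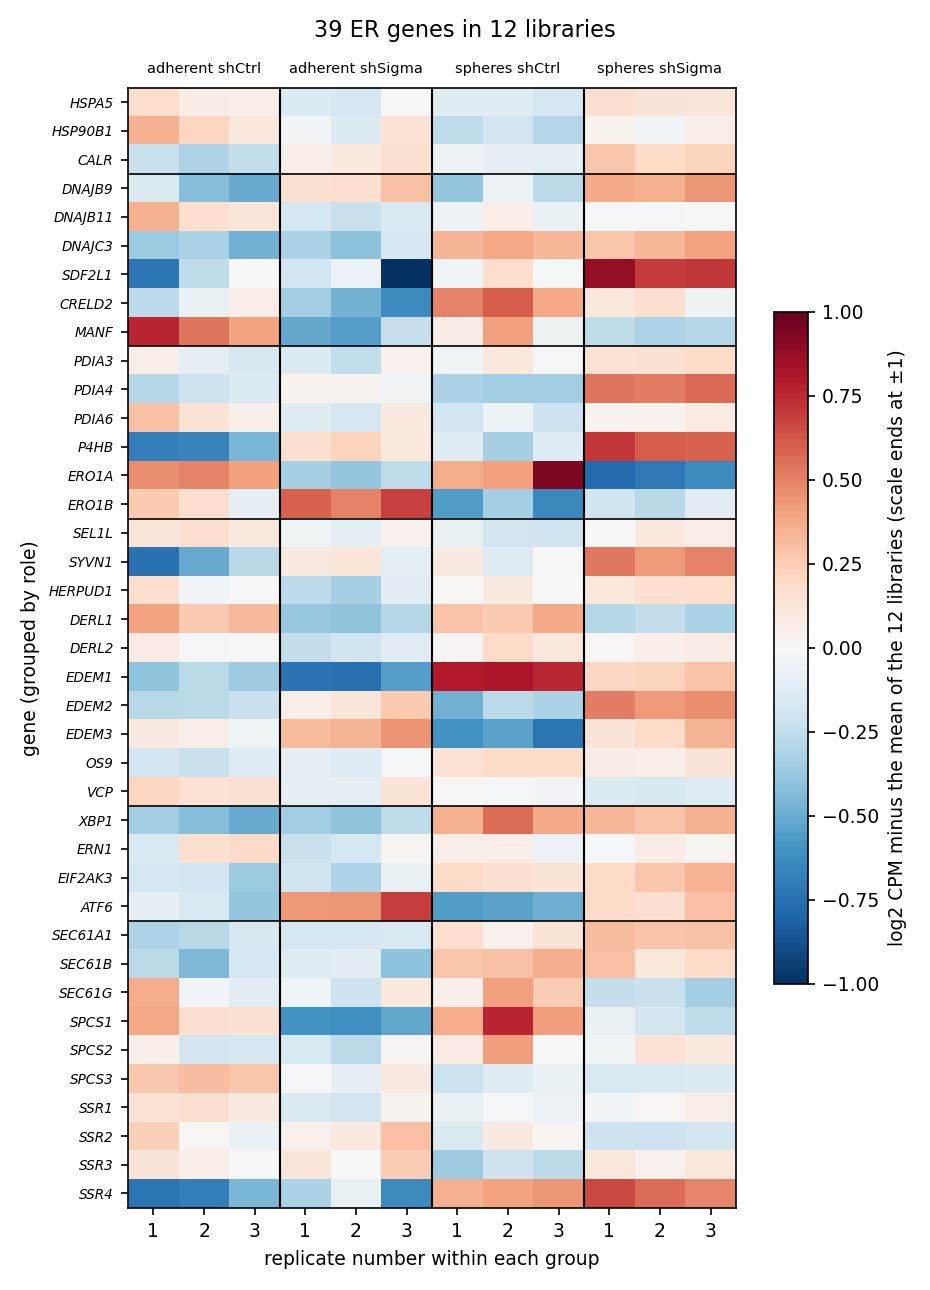
Log2 CPM minus the mean over the 12 libraries (colour, scale ending at 1 unit either way) for 39 genes in rows, grouped by role, and the 12 libraries in columns with their replicate numbers. PDIA4, P4HB and SDF2L1 are highest in the 3 shSigma spheres, and ERO1A is lowest there.

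The promoter elements shown at the start fell on genes of both directions. Of the 9 genes with ERSE or ERSE-II that were tested, CANX left out, 2 were higher (CALR and ERO1B) and 5 lower (HSPA5, HSP90B1, PDIA6, CRELD2 and HERPUD1) in adherent cells, with a median log2 fold change of -0.27. In spheres 6 were higher (HSPA5, HSP90B1, PDIA6, CALR, ERO1B and SDF2L1) and 1 was lower (CRELD2), with a median of 0.27. XBP1, which holds ERSE, was called in neither culture. The 27 tested genes whose window holds neither element had medians of 0.00 and 0.01, with 6 higher and 9 lower in adherent cells and 11 higher and 6 lower in spheres. The interaction passed for 4 of the 9, all upward, and for 10 of the 27, 9 of them upward. Over all genes tested 50.0% were called in adherent cells, 22.3% higher and 27.7% lower. In spheres 61.1% of all genes were called, 30.2% higher and 30.9% lower, and the interaction passed for 28.4%, 12.7% upward. The adherent calls of the 5 lower genes with an element were each lost in some fits with 1 library left out. The medians of the 9, -0.27 and 0.27, are the values of HSPA5 in adherent cells and of HSP90B1 in spheres. Both are genes whose change of direction was the reason for showing the elements, so the split is a description only. Whether an element bears on these changes was not tested.

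The share of the library taken by the list followed its abundant members. Summed over the 42 genes, the level was 11298 ± 439 CPM (SD, n = 3) in adherent shCtrl cells, 10892 ± 599 CPM in adherent shSigma cells, 10815 ± 147 CPM in shCtrl spheres and 12311 ± 163 CPM in shSigma spheres. The oxidative folding genes went from 2855 ± 90.3 CPM in shCtrl spheres to 3639 ± 49.2 CPM in shSigma spheres, and the chaperones from 3713 ± 76.7 to 4517 ± 89.3 CPM. The ERAD genes went from 1987 ± 13.6 to 1874 ± 29.4 CPM. In bulk RNA, a smaller share of cells with a transcript and less of it in each cell cannot be told apart.

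Tumor spheres were also compared with adherent cultures of the same hairpin, with libraries that the knockdown comparisons share. In shCtrl cells 25 of the 40 genes passed, 12 higher and 13 lower in spheres, where 53.7% of 13800 genes passed, 27.4% higher and 26.3% lower. In shSigma cells 27 passed, 23 higher and 4 lower (26 of 39 without CANX), where 47.1% of 13622 genes passed, 21.9% higher and 25.2% lower. The medians were 0.03 (0.08 without CANX) and 0.21, against 0.04 and 0.00 over all genes. A change over 1 log2 unit was called for 2 genes in each (15.8% and 9.32% of all genes), and the libraries of the cultures did not overlap for 25 and 30 of the 40 genes (62.7% and 60.8% of all genes). The highest of those called were EDEM1 and SSR4 in shCtrl cells, and SDF2L1 and EDEM1 in shSigma cells besides CANX (1.55 ± 0.24, FDR = 0.00157).

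EDEM1 was at 158, 173 and 161 CPM in adherent and 360.5, 365 and 351 CPM in sphere shCtrl cells, a log2 fold change of 1.13 ± 0.06 (FDR = 3.79e-06) or 2.19-fold. In shSigma cells it was at 125, 124 and 142 and 239.7, 242 and 254 CPM, a change of 0.94 ± 0.05 (FDR = 1.21e-05). The groups were separate under both hairpins. XBP1 rose with sphere growth by 0.86 ± 0.08 (FDR = 5.99e-05) in shCtrl and 0.68 ± 0.05 (FDR = 3.54e-05) in shSigma cells, EIF2AK3 by 0.40 ± 0.08 (FDR = 0.00453) and 0.49 ± 0.08 (FDR = 0.00145), and DNAJC3 by 0.74 ± 0.07 and 0.65 ± 0.06. SSR4 went from 30.2, 31.1 and 36.6 to 64.2, 66.5 and 68.2 CPM in shCtrl cells (1.02 ± 0.09, FDR = 5.73e-05) and from 40.4, 47.6 and 32.3 to 79.1, 73.9 and 70.3 CPM in shSigma cells (0.91 ± 0.16, FDR = 0.00442). The 40 genes nearest to SSR4 had medians of 0.37 and 0.36 in these comparisons. SDF2L1 was at 0.34 ± 0.18 (FDR = 0.144) in shCtrl and 1.17 ± 0.30 (FDR = 0.0219) in shSigma cells, the latter called in 3 of the 6 fits with 1 library left out, those that left out an adherent library.

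On the falling side, ERO1B was lower in spheres under both hairpins, at -0.63 ± 0.12 (FDR = 0.00294) and -0.76 ± 0.07 (FDR = 0.000102) on the log2 scale. ATF6 was lower too, -0.32 ± 0.09 (FDR = 0.0158) in shCtrl and -0.29 ± 0.07 (FDR = 0.0116) in shSigma cells, the first not called without adherent shCtrl replicate 2 and the second without sphere shSigma replicate 2, over which the values were -0.46 to -0.30 and -0.33 to -0.22. EDEM3 was at -0.66 ± 0.08 (FDR = 0.000263) in shCtrl and -0.12 ± 0.07 (FDR = 0.15) in shSigma cells, and HSP90B1 at -0.48 ± 0.09 (FDR = 0.00208) and 0.05 ± 0.07 (FDR = 0.549). HSPA5 was lower in spheres of shCtrl cells (-0.24 ± 0.07, FDR = 0.0159, not called without sphere shCtrl replicate 1 or 3) and higher in spheres of shSigma cells (0.26 ± 0.05, FDR = 0.00383). ERO1A was at 0.14 ± 0.15 (FDR = 0.463) and -0.36 ± 0.05 (FDR = 0.00113), and SSR2 at -0.08 ± 0.09 (FDR = 0.521) and -0.33 ± 0.06 (FDR = 0.00275). SSR2 stood at 265, 226 and 215 CPM in adherent and 203, 239 and 228 CPM in sphere shCtrl cells, and at 232, 239.9 and 277 and 195, 195 and 197 CPM in shSigma cells, where the sphere libraries were below the adherent ones. The same interaction tests as for the knockdown apply to these differences between hairpins, since they compare the same 4 groups.

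**Figure D5:**
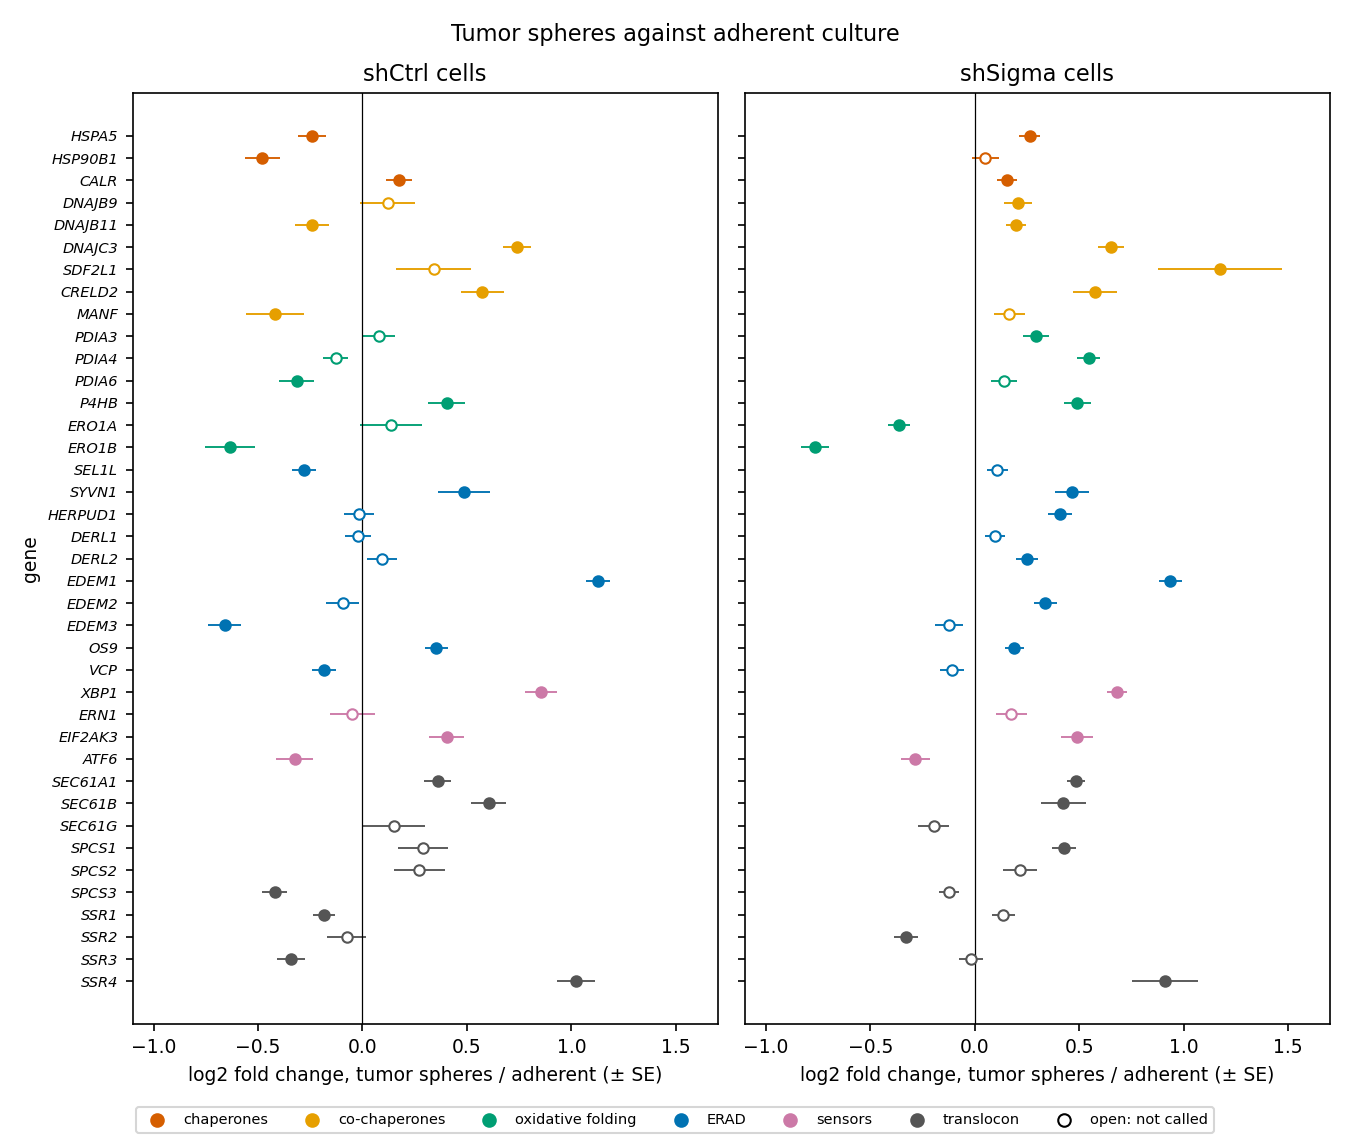
Log2 fold change of tumor spheres against adherent culture (x axis, bars of 1 SE) for 39 genes (y axis) in shCtrl cells (left) and shSigma cells (right), coloured by role. Filled points passed an FDR under 0.05, and EDEM1, XBP1 and SSR4 lie on the right in both panels while ERO1B lies on the left.

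Other genes of the same pathways, 131 in all, were counted in the same fits. In adherent cells 22 of the 126 tested were higher and 48 lower, with a median log2 fold change of -0.14. In spheres 32 of 127 were higher and 49 lower, with a median of -0.07. The shares called were 55.6% in adherent cells and 63.8% in spheres, where 50.0% and 61.1% of all genes were called. Of all genes 22.3% were higher and 27.7% lower in adherent cells, and 30.2% and 30.9% in spheres. The 37 other folding enzymes had 5 higher and 18 lower in adherent cells (62.2% called) and 10 higher and 15 lower in spheres (67.6%). Of those called, DNAJC1, a membrane DnaJ protein, was the highest in both cultures (1.80 ± 0.16, FDR = 9.3e-05 and 1.37 ± 0.11, FDR = 5.12e-07), and the lowest were SUMF1, which activates sulfatases (-1.45 ± 0.08, FDR = 1.45e-05 in adherent cells), and the collagen isomerase FKBP10 (-1.46 ± 0.07, FDR = 9.91e-09 in spheres). Of the 28 other ERAD genes tested, 8 were higher and 11 lower in adherent cells and 10 and 9 in spheres (67.9% called in each). SVIP, an inhibitor of VCP-dependent ERAD, was the lowest of those called in both. It fell from 39.6, 34.3 and 34.9 to 10.3, 9.06 and 11.7 CPM in adherent cells and from 44.9, 54.0 and 47.7 to 12, 10.5 and 12.5 CPM in spheres (-1.88 ± 0.11, FDR = 2.18e-05 and -2.07 ± 0.09, FDR = 6.58e-09). The highest were FOXRED2 in adherent cells (1.32 ± 0.13, FDR = 0.000193) and TMUB1 in spheres (1.31 ± 0.20, FDR = 0.00039).

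Among 38 other translocation genes, 4 were higher and 16 lower in adherent cells and 5 and 21 in spheres. The shares called were 52.6% and 68.4%, beside 50.0% and 61.1% of all genes. GET3, the ATPase that delivers tail-anchored proteins to the ER, had the largest change of the pathway. It went from 38.9, 47.5 and 57.6 to 5.62, 6.40 and 5.11 CPM in adherent cells and from 81.5, 80.1 and 92.7 to 9.28, 8.05 and 10.6 CPM in spheres, log2 fold changes of -3.13 ± 0.17 (FDR = 1.33e-05) and -3.19 ± 0.10 (FDR = 4.22e-10). Its partner GET4 was the highest of the list in adherent cells (1.08 ± 0.32, FDR = 0.0286), and SEC61A2, a paralog of SEC61A1, in spheres (0.44 ± 0.10, FDR = 0.00315). The call of GET4 was lost without shCtrl replicate 2 or shSigma replicate 1 or 2, and those of both genes relative to their neighbours, at 0.77 for GET4 and 0.18 for SEC61A2. Among the other signalling genes 5 of 23 were higher and 3 lower in adherent cells (34.8% called) and 7 and 4 of 24 in spheres (45.8%). EIF2S1, which encodes the eIF2α subunit that PERK phosphorylates, was the lowest of those called in both (-0.69 ± 0.09, FDR = 0.000739 and -0.81 ± 0.05, FDR = 9.95e-08). BCL2L11, the cell death gene BIM, was highest in adherent cells (1.11 ± 0.10, FDR = 0.000137) and TRAF2, an IRE1 adaptor, in spheres (0.92 ± 0.09, FDR = 2.41e-06).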

How the data were processed

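The deposited table holds raw read counts per gene for 12 libraries, made by the authors with STAR 2.6.1c on GRCh38.p12 (hg38), with DESeq also named in the submitters' processing notes. Libraries came from 800 ng of RNA with a directional poly(A) kit and were read for 75 bases from 1 end. The annotation, the strand setting and the treatment of reads with several matches were not given in the sources used here. Symbols and positions were taken from GENCODE 44, which matched 26153 of 28747 identifiers. The 42 genes and the lists of other pathway genes were chosen with earlier results of these data known.

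Counts were fitted with edgeR 4.0.16 in R 4.3.3 (TMM scaling, filterByExpr with a minimum count of 10, quasi-likelihood test), with 6 libraries for each comparison of 2 groups and all 12 for the interaction, and p-values were adjusted over all genes by Benjamini-Hochberg. CPM are counts scaled to the TMM-adjusted size of each library. A shift shared with the neighbourhood was given as the median over the 40 tested genes that lay nearest on the chromosome and was entered as an offset in an alternative fit. Other alternatives were DESeq2 1.42.0, other normalizations and filters, stricter calls, a replicate block, 1 fit of all libraries and each library left out. Fits were tested on simulated counts with the same dispersion for all genes and few changed genes. That setting is simpler than these data, so the test does not show how the fits behave here. The labels call the replicates independent, and the p-values measure the spread between these samples. Whether replicates came from separate transductions was not given in the sources used here. If they did not, the p-values do not cover differences between the transduced lines, in either culture. For a single gene an exact permutation test of 3 against 3 cannot go below 0.1 and was not used. Values were printed in every library for the sensors, XBP1, HSPA5, HSP90B1, the called gene with the largest change of each role, the 5 largest interactions and the 3 highest and lowest genes of each culture comparison, and further members were added after their values were seen. The check of the hairpin's target gene is not reported here.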

Additional observations from a re-analysis of the deposited data

Results flagged for a closer look

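For 15 of the 40 genes the effect of the knockdown differed between tumor spheres and adherent cells by edgeR's interaction test at a Benjamini-Hochberg adjusted p under 0.05, where 28.4% of all genes did. The differences are given as the log2 fold change in spheres minus that in adherent cells. CANX had 1.61, on 22 to 86 counts in a stretch of near-empty genes. Among the chaperones HSP90B1 had 0.50 and HSPA5 0.48. Among the co-chaperones MANF had 0.56 and DNAJB11 0.41. In oxidative folding PDIA4 had 0.65 and PDIA6 0.43, while ERO1A was the 1 gene with a lower value, -0.52. In ERAD EDEM3 had 0.51, EDEM2 0.41, HERPUD1 0.40 and SEL1L 0.36. Of the translocon-associated and signal peptidase genes SSR3 had 0.30, SSR1 0.30 and SPCS3 0.27. The calls of ERO1A, MANF, SSR3, SSR1 and SPCS3 were lost in most of the 12 fits with 1 library left out. SDF2L1 had a larger difference, 0.82, that did not pass (adjusted p = 0.113) but was called by DESeq2. No explanation of these differences was tested.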

How the results depend on the processing

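Among knockdown changes in adherent cells, 7 of 24 calls were kept under all alternatives run, with 15 of 28 in tumor spheres, 5 of 15 for the interaction, and 17 of 25 and 21 of 27 for growth as spheres in shCtrl and shSigma cells. These shares rest on unlike sets of alternatives and do not rank the comparisons. The neighbour median was subtracted for the knockdown comparisons only. CRELD2, DERL1, DNAJB9, EDEM1, MANF, SEC61A1, SPCS1 and SYVN1 lost their sphere knockdown call in that fit alone. For the interaction 12 libraries were left out in turn, against 6 elsewhere. Leaving out each library in turn gave 13 to 26, 25 to 27, 10 to 17, 18 to 28 and 23 to 33 calls in the same order, beside 37.0 to 50.7%, 54.2 to 59.2%, 22.5 to 32.7%, 41.0 to 60.3% and 34.3 to 56.2% of all genes. A log2 fold change over 1 was required in another setting, which left 1, 2, 1, 2 and 2 genes. At an adjusted p under 0.01 there were 13 calls in adherent cells, 8 for the interaction and 16 for spheres of shCtrl cells, beside 35.4%, 17.7% and 37.3% of all genes. With CANX left out, a choice made after seeing the data, the counts were 24, 27, 14, 25 and 26. Same-numbered replicates did not pair, since the correlations of their deviations ran from -0.85 to 0.43 and no comparison had all 3 over 0.1. With the replicate block the counts were 12 in adherent cells and 6 for the interaction, beside 35.4% and 17.6% of all genes. With the median of the 40 nearest genes subtracted, signs turned in adherent cells for PDIA4 (-0.63), SEL1L (0.21), SYVN1 (-0.025), EDEM1 (0.16) and SSR3 (0.24), and in spheres for CRELD2 (0.023), DERL1 (0.017), OS9 (0.16), VCP (0.014) and SSR4 (-0.061). The cause was not tested. Adherent libraries varied more than sphere libraries, which limits what could be detected there, and splicing and protein levels were not measured.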
